A study of Mus musculus with 39 samples.

Results

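The genes described here are the protein-coding genes of the mitochondrial respiratory chain and ATP synthase, in microglia sorted from mouse striatum. They were chosen by symbol alone: every identifier of the deposited table that GENCODE M21 names as a protein-coding gene starting with Ndufa, Ndufb, Ndufc, Ndufs or Ndufv, as Sdha to Sdhd, as Uqcr, as Cox4 to Cox8, as Atp5, or as mt-Nd, mt-Co, mt-Cytb or mt-Atp. The rule found 107 of 55487 identifiers, of which 94 are encoded in the nucleus and 13 on mitochondrial DNA. A filter on low counts kept 98 of them (85 nuclear and all 13 mitochondrial) among 13420 genes tested.

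The cells came from male mice of 8 to 10 weeks and were sorted as live, CD11b+, CD45-low and P2RY12+ cells 18 hours after the mice had received lipopolysaccharide (LPS, the endotoxin of gram-negative bacteria, injected into the peritoneum at 4500 endotoxin units per gram of body weight) or saline. The mice also fall into prenatal CON or MIA (maternal immune activation) and into a CON arm or a PLX arm. What PLX stands for is not defined in the labels. An arm is written as prenatal term, colon, arm term. The libraries used were 4 of CON_CON_SAL and 4 of CON_CON_LPS, 4 of MIA_CON_SAL and 6 of MIA_CON_LPS, 4 of CON_PLX_SAL and 6 of CON_PLX_LPS, and 3 of MIA_PLX_SAL and 6 of MIA_PLX_LPS. CON_CON_LPS replicate 3 and MIA_PLX_SAL replicate 1 were left out because their titles mark them for exclusion. The labels give no strain, no dose for the prenatal or PLX terms, and do not state whether each replicate is its own animal. All p-values therefore rest on the spread between these libraries, which may be technical.

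The respiratory chain passes electrons from NADH and succinate to oxygen through complexes I to IV in the inner mitochondrial membrane, and complex V, the ATP synthase, uses the resulting proton gradient to make ATP. Complexes I, III, IV and V are built from subunits of both genomes, since mitochondrial DNA encodes a small set of core subunits and the nucleus encodes all others, while every subunit of complex II is nuclear. Macrophages exposed to LPS are known to change their use of glycolysis and of the respiratory chain, and in microglia the transcripts of both genomes can be read from the same library.

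The 13 mitochondrial messages come from a compact circle whose genes touch or overlap, which bears on how their reads can be assigned. The annotated mt-Atp8 and mt-Atp6 genes share 43 bases at chrM:7927-7969 (GRCm38, plus strand), the longest overlap among them, shown here because a read inside it belongs to both genes.

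mt-Atp8 and mt-Atp6 overlap: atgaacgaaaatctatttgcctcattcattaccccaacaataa

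The nuclear members have no common start site, and their promoters were read from RefSeq (GRCm38.p6), where 76 of 93 nuclear symbols matched. Transcription factor NRF1, a known activator of respiratory genes, binds a palindrome whose core letters GCGCATGC, read on either strand, were searched in a window of 250 bases before and 50 after each annotated start. They lay in 12 of the 76 members (15.8%) and in 3.94% of 17492 protein-coding genes. The ETS letters CCGGAAGT (the family of GABP) lay in 5 members (6.58%, against 5.69% of all genes) and the YY1 letters AAGATGGC in 11 (14.5%, against 3.57%). At least 1 of these motifs lay in 27 members (35.5%, against 12.3%). The bases before the start of 3 members are shown because each holds the full NRF1 palindrome, in capitals, in which the core occurs on both strands and overlaps itself. They are Ndufa11 (complex I) at chr17:56717512-56717761 on the plus strand, Atp5k (complex V) at chr5:108434400-108434649 on the minus strand and Cox6a1 (complex IV) at chr5:115348959-115349208 on the minus strand.

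Ndufa11 promoter: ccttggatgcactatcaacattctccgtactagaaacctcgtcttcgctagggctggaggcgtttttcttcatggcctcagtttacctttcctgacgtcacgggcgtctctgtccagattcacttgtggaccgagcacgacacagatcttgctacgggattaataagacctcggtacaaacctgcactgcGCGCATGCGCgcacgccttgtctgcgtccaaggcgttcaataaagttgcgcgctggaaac
Atp5k promoter: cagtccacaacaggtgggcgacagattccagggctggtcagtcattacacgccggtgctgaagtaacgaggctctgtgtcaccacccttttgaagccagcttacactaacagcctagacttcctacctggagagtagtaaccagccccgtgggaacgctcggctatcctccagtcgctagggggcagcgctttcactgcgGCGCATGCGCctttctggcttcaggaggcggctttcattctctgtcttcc
Cox6a1 promoter: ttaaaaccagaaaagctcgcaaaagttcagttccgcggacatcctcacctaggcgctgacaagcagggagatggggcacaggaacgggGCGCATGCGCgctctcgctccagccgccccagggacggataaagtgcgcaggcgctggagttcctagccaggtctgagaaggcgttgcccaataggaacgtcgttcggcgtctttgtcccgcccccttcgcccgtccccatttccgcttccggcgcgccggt

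The libraries held 1510006 to 5746240 counts. Levels are given in CPM (counts relative to library size, unscaled for marker sums and TMM-scaled for single genes). The sum over 12 microglial markers lay between 19890 and 22270 CPM in saline libraries and between 7084 and 16750 CPM after LPS. Of these 12 markers 10 fell after LPS. Such sums do not show whether each sort marker was present in each library. Monocyte markers summed to 2.74 to 19.0 CPM in saline and 9.79 to 564 CPM in LPS libraries (4 of the 5 tested rose and 1 fell), and neutrophil markers to 0.0 to 74.1 and 3.32 to 124 CPM (5 of 5 tested rose), while lymphocyte markers stayed at or under 2.19 CPM with Nkg7 at 0 throughout. Border macrophage markers summed to 32.5 to 108 CPM in saline and 7.07 to 186 CPM in LPS libraries (2 of 6 tested rose), and genes of dissociation stress to 3562 to 12980 and 2044 to 15250 CPM (3 of 10 rose). Endothelial and mural markers summed to 25.4 to 54.6 and 7.29 to 33.5 CPM (2 of 4 tested fell), and erythroid ones to 0.0 to 134 and 0.223 to 9.13 CPM (2 of 2 tested fell). Of the astrocyte markers 1 of 6 tested rose and 1 fell (149 to 818.5 against 74.7 to 337 CPM), and of the oligodendrocyte ones 1 of 5 fell (73.2 to 119 against 36.8 to 109.8 CPM). Of the neuron markers, 0 of 5 tested passed the test and their sums overlapped (21.8 to 52.4 against 6.42 to 51.1 CPM). The filter on low counts needed 3.231 CPM in 3 libraries. Summed neutrophil markers had a median of 0.344 CPM in saline libraries, and summed erythroid markers one of 2.475 CPM in LPS libraries. Markers of these 2 lists may thus have passed through 1 injection only, so their calls are given as a description. The part of these markers in the results below was not tested. MIA_CON_LPS replicate 6 stood apart: its counts differed from those of the excluded MIA_PLX_SAL replicate 1 by a chi-square per degree of freedom of 1.53 over 11605 genes, the lowest of 741 pairs. The next pair gave 2.42. The next nearest library to replicate 6 was MIA_CON_SAL replicate 2, also labelled saline, at 8.94. A library labelled LPS and one labelled saline are thus this alike, and whether the label of either holds was not tested. CON_CON_LPS replicate 4 and MIA_PLX_LPS replicate 2 had the lowest mitochondrial shares among LPS libraries, and results that rest on these libraries are given with and without them.

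Respiratory chain messages of both genomes took a larger mean share of the library after LPS in each arm, with no overlap between injections in 4 of 4 arms for the nuclear members and in 2 of 4 for the mitochondrial ones. The 94 nuclear members together took 0.1635% to 0.2194% of all counts in the 15 saline libraries and 0.1975% to 0.3176% in the 22 LPS libraries. In every arm each LPS library lay above each saline library of the same arm. As a share of the counts outside the mitochondrial chromosome this held in 3 arms, while in CON:CON the lowest LPS library (0.213%) lay below the highest saline library (0.229%). The mean share went from 0.184% ± 0.0156 (SD, n = 4) to 0.231% ± 0.0275 (SD, n = 4) in CON:CON, a ratio of 1.26. It went from 0.188% ± 0.00955 (SD, n = 4) to 0.244% ± 0.0175 (SD, n = 6) in MIA:CON, a ratio of 1.30. In CON:PLX it went from 0.188% ± 0.00633 (SD, n = 4) to 0.273% ± 0.0289 (SD, n = 6), a ratio of 1.45, the highest of the 4. In MIA:PLX it went from 0.214% ± 0.00663 (SD, n = 3) to 0.253% ± 0.0134 (SD, n = 6), a ratio of 1.18, where the saline group was the highest of the saline groups. The nuclear members were also summed by complex, with complex I split into core, accessory and assembly genes. In CON:CON and MIA:PLX only complex V was without overlap, with ratios of LPS to saline of 1.49 and 1.34. The other sums overlapped there, with ratios of 0.96 to 1.3 in CON:CON and 0.72 to 1.24 in MIA:PLX. In bulk RNA such as this, fewer cells of a type and less RNA per cell cannot be told apart.

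The 13 mitochondrial members took about an order of magnitude more of each library than all nuclear members combined, and varied more between LPS libraries. Their share was 1.81% ± 0.178 (SD, n = 4) in CON_CON_SAL and 2.12% ± 0.781 (SD, n = 4) in CON_CON_LPS, where replicate 4 at 1.02% lay below every saline library and the other 3 ran from 2.12% to 2.81%. In MIA:CON it was 2.07% ± 0.112 (SD, n = 4) after saline and 2.79% ± 0.290 (SD, n = 6) after LPS, and in CON:PLX 1.74% ± 0.149 (SD, n = 4) and 2.77% ± 0.424 (SD, n = 6), with no overlap between injections in either arm. In MIA:PLX it was 2.04% ± 0.215 (SD, n = 3) and 2.73% ± 0.743 (SD, n = 6), with overlap, since replicate 2 of the LPS group lay at 1.58%. The ratios of LPS to saline were 1.17 in CON:CON and 1.35 in MIA:CON, with 1.59 in CON:PLX and 1.34 in MIA:PLX. Without CON_CON_LPS replicate 4 the ratio in CON:CON was 1.37, and without MIA_PLX_LPS replicate 2 that in MIA:PLX was 1.45, and the injections then overlapped in neither arm. These 2 libraries were picked for their low shares, so a higher ratio without them was fixed in advance. Without CON_CON_LPS replicate 2 the ratio in CON:CON was 1.04, with overlap. Without MIA_PLX_LPS replicate 4 that in MIA:PLX was 1.26, also with overlap. Without MIA_CON_LPS replicate 6 the ratio in MIA:CON was 1.40. The mitochondrial ribosomal RNAs, transcribed from the same circle, moved alike: the log2 ratio of mitochondrial messages to mitochondrial ribosomal RNA was -2.61 ± 0.048 (SD, n = 15) after saline and -2.59 ± 0.083 (SD, n = 22) after LPS.

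**Figure D1:**
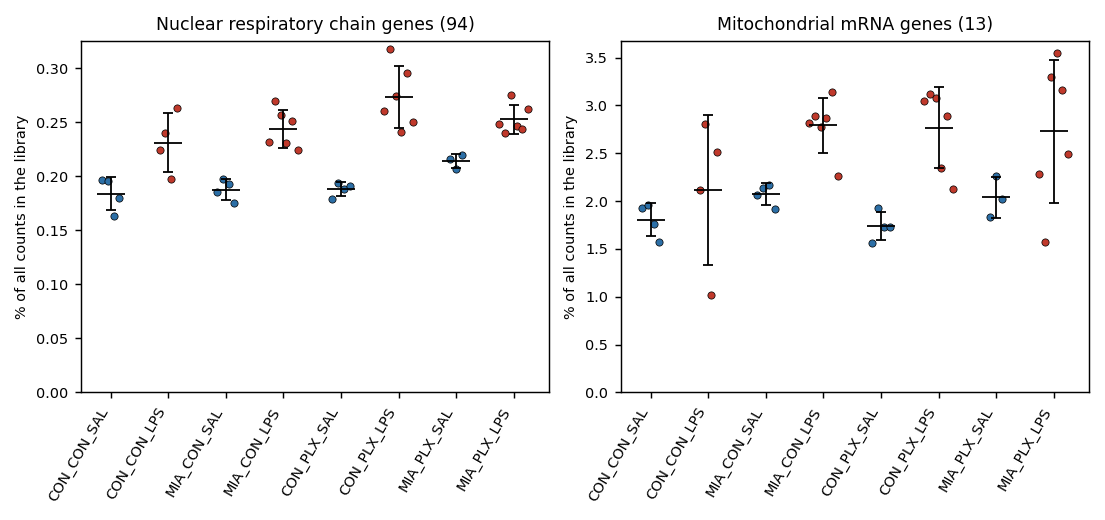
Share of all counts in a library (percent) taken by the 94 nuclear members (left) and the 13 mitochondrial members (right) in each of the 8 groups. Points are libraries, blue for saline and red for LPS, and bars are the mean ± SD; nuclear shares of LPS libraries sit above their saline groups in all 4 arms, while CON_CON_LPS replicate 4 (1.02%) and MIA_PLX_LPS replicate 2 (1.58%) pull the mitochondrial LPS groups down.

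Summed over genes and pooled over the arms, the balance between the genomes differed between injections by less than the spread between libraries. The log2 ratio of nuclear to mitochondrial member counts was -3.31 ± 0.144 (SD, n = 15) in saline libraries and -3.35 ± 0.328 (SD, n = 22) in LPS libraries. The difference, LPS minus saline, was 0.19 in CON:CON and -0.05 in MIA:CON, and -0.13 in each of the PLX arms. The injections overlapped in every arm. In CON:CON, MIA:CON and CON:PLX the size of the difference exceeded the SD of the saline group (0.124, 0.0238 and 0.0805). It did not exceed that of the LPS group (0.508, 0.132 and 0.167). In MIA:PLX it exceeded neither SD (0.186 and 0.413). The CON:CON value became -0.05 without CON_CON_LPS replicate 4 and 0.34 without replicate 2. It was -0.02 with the 2 marked libraries included, so its sign rested on which libraries were used. In MIA:PLX the value became -0.27 without MIA_PLX_LPS replicate 2 and -0.04 without replicate 4, and in MIA:CON it became -0.08 without MIA_CON_LPS replicate 6. With equal weight for each gene (mean log2 CPM of nuclear minus that of mitochondrial members) the mean over the arms was -0.23 in place of -0.03, and -0.53 in MIA:PLX.

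Gene by gene, LPS raised most members of both genomes. Over the mean of the 4 arms, 62 of 85 nuclear members rose and 2 fell at an adjusted p under 0.05 (edgeR quasi-likelihood test, two-sided, Benjamini-Hochberg over all genes tested), and all 13 mitochondrial members rose. Of all 13420 genes tested, 30.3% were called higher and 26.0% lower in this contrast. Among the members counted, Cox6a2 and Ndufa5 passed the filter on low counts through LPS libraries only, and the other 96 had enough counts after either injection. The median log2 fold change was 0.58 over the nuclear members, 0.72 over the mitochondrial members and 0.03 over all genes. Fold changes are relative to TMM scaling, whose factors ran from 0.795 to 1.33. On library totals without a scaling factor the median of all genes was -0.13, and 38.7% of called genes were higher instead of 53.8%. On that scale 52 nuclear members were higher and 6 lower with a median of 0.38, and 11 mitochondrial members were higher with a median of 0.51.

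**Figure D2:**
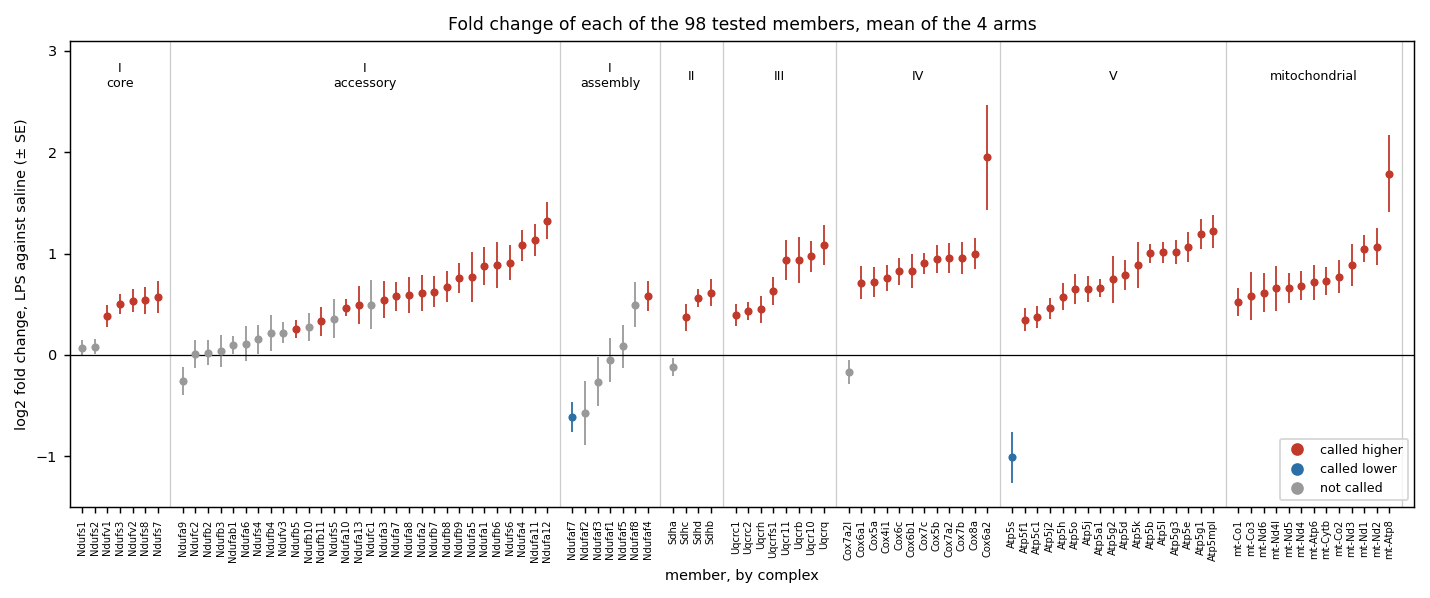
Log2 fold change, LPS against saline over the mean of the 4 arms, with its SE for each of the 98 tested members, grouped by complex and ordered by value within a group. Red members were called higher, blue lower and grey neither; all 13 mitochondrial members and all 8 of complex III are red, while the assembly factors of complex I lie on both sides of 0.

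Complex I takes electrons from NADH. Its nuclear core subunits, which carry the flavin and iron-sulfur centres, rose in 5 of 7 cases with a median log2 fold change of 0.50. Ndufs3, Ndufv2, Ndufs8 and Ndufs7 had log2 fold changes of 0.50, 0.54, 0.54 and 0.57. Ndufs1, which holds several of the iron-sulfur centres, gave 0.07 ± 0.07 (SE) and did not pass the test (adjusted p = 0.444 by edgeR), with 29.4 to 44.0 CPM in saline and 28.0 to 50.6 CPM in LPS libraries. The accessory subunits, which surround and stabilise that core, rose in 18 of 30 cases and fell in none, with a median of 0.49.

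Ndufa12, an accessory subunit at the matrix arm, had the highest log2 fold change of the accessory subunits. It lay at 2.5, 4.20 and 9.15 CPM (lowest, median and highest of 15 saline libraries) and at 4.41, 13.3 and 19.6 CPM in LPS libraries, 16 of which lay above the highest saline library. Its log2 fold change was 1.32 ± 0.18 (SE, adjusted p = 1.253e-07 by edgeR). Ndufa11, a membrane-arm subunit, lay at 2.78, 5.72 and 8.75 CPM after saline and at 6.14, 12.8 and 23.8 CPM after LPS, with 19 of 22 LPS libraries above all saline ones, and rose by 1.13 ± 0.15 (SE, adjusted p = 1.063e-07 by edgeR). Ndufa10 rose by 0.47 ± 0.09 (SE), and Ndufc2 gave 0.01 (adjusted p = 0.965 by edgeR), the largest p among the accessory subunits.

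Ndufa4 carries a complex I name and is counted with that class here, although it is now known as a subunit of complex IV. After saline it lay at 16.6, 17.5, 10.0 and 12.6 CPM in CON_CON_SAL, at 11.6, 17.6, 12.6 and 10.5 CPM in MIA_CON_SAL, at 15.6, 12.6, 13.4 and 9.73 CPM in CON_PLX_SAL and at 20.5, 13.6 and 20.9 CPM in MIA_PLX_SAL. After LPS it lay at 19.8, 26.0, 9.98 and 38.1 CPM in CON_CON_LPS, and at lowest, median and highest values of 17.9, 26.6 and 51.1 CPM in MIA_CON_LPS, 24.7, 37.8 and 49.3 CPM in CON_PLX_LPS and 19.1, 33.4 and 45.2 CPM in MIA_PLX_LPS. The injections did not overlap in MIA:CON and CON:PLX, and overlapped in CON:CON, where replicate 4 was the low LPS library, and in MIA:PLX. Its log2 fold change was 1.08 ± 0.15 (SE, adjusted p = 1.634e-07 by edgeR). A relative of Ndufa4 outside the rule, AA467197, was at 0 in 13 of 15 saline libraries, with 2 counts in all, and at 0 in 1 of 22 LPS libraries, with 650 counts, 242 of them in CON_PLX_LPS replicate 1. Since AA467197 passed the filter through LPS libraries only, with at most 1 count in a saline library, these counts are given as a description and its test is not used. Ndufa4l2, the paralog known from hypoxic cells, had 3 counts in all 37 libraries and was not tested.

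The complex I assembly factors, which build the complex and leave it, did not share the rise. Of 7 tested, 1 rose and 1 fell, with a median of -0.05. Ndufaf7, a methyltransferase that modifies a core subunit, fell: it lay at 15.4, 18.2 and 23.4 CPM (lowest, median and highest) after saline and at 3.11, 12.4 and 20.9 CPM after LPS, with 17 of 22 LPS libraries below every saline library. Its log2 fold change was -0.61 ± 0.15 (SE, adjusted p = 5.448e-04 by edgeR), a fold of 0.653. Ndufaf4 rose by 0.58 (adjusted p = 1.183e-03 by edgeR). Ndufaf8 at 0.50, Ndufaf2 at -0.57 and Ndufaf1 at -0.05 did not pass the test. Whether assembly factors differ from subunits was not tested.

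Complex II oxidises succinate and links the chain to the tricarboxylic acid cycle. Its subunits split: Sdhb, Sdhc and Sdhd rose and Sdha did not pass the test. Sdhb, the iron-sulfur subunit, lay at 8.75, 13.9 and 19.7 CPM (lowest, median and highest) after saline and 14.2, 21 and 33.3 CPM after LPS, with 13 of 22 LPS libraries above the highest saline library, and rose by 0.61 ± 0.13 (SE, adjusted p = 1.563e-04 by edgeR). Sdhd, a membrane anchor, rose by 0.56 ± 0.09 (SE, adjusted p = 1.309e-06 by edgeR), and Sdhc, the other anchor, by 0.37, a call it lost on library totals without a scaling factor (0.16). Sdha, the flavoprotein that binds succinate, lay at 88.3, 99.2 and 116 CPM after saline and 55.1, 86.3 and 124 CPM after LPS. Its log2 fold change was -0.12 ± 0.09 (SE, adjusted p = 0.244 by edgeR), and it was called lower on library totals without a scaling factor.

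Complex III passes electrons from ubiquinol to cytochrome c. All 8 of its nuclear members rose, with a median log2 fold change of 0.78. Uqcrq, a small membrane subunit, lay at 6.79, 12 and 19.9 CPM (lowest, median and highest) after saline and at 5.37, 27.0 and 43.9 CPM after LPS, where CON_CON_LPS replicate 4 (5.37 CPM) and MIA_PLX_LPS replicate 4 (6.90 CPM) were the low libraries and 15 of 22 lay above every saline library. It rose by 1.09 ± 0.20 (SE, adjusted p = 1.706e-05 by edgeR). Uqcr10 rose by 0.97 and Uqcr11 by 0.93, and the core proteins were less far from 0, with 0.43 for Uqcrc2. Uqcrh, the hinge protein near cytochrome c, gave 0.45, and on library totals without a scaling factor it lost its call (0.24), as did Uqcrc1 (0.20).

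Complex IV, cytochrome c oxidase, reduces oxygen, and its nuclear subunits surround a mitochondrial catalytic core. Of 12 tested members 11 rose, with a median of 0.86. Cox7c, a small subunit of its membrane part, lay at 40.9, 48.1, 36.6 and 36.9 CPM in CON_CON_SAL, at 40.7, 54.4, 34.9 and 37.9 CPM in MIA_CON_SAL, at 40.3, 39.8, 36.6 and 34.1 CPM in CON_PLX_SAL and at 49.3, 40.4 and 46.3 CPM in MIA_PLX_SAL. After LPS it lay at 65.9, 64.5, 51.4 and 99.6 CPM in CON_CON_LPS, and at lowest, median and highest values of 59.0, 77.4 and 121.9 CPM in MIA_CON_LPS, 69.7, 78.0 and 94.4 CPM in CON_PLX_LPS and 48.6, 73.0 and 105.1 CPM in MIA_PLX_LPS. LPS libraries lay above saline ones without overlap in CON:CON, MIA:CON and CON:PLX, and in MIA:PLX only MIA_PLX_LPS replicate 2, at 48.6 CPM, reached into the saline range. The log2 fold change of Cox7c was 0.90 ± 0.10 (SE, adjusted p = 3.49e-09 by edgeR). Cox5b, Cox7a2 and Cox8a rose by 0.95, 0.95 and 1.0.

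Complex IV has subunits that occur as a widely expressed form and a form known from muscle, lung or testis, and the libraries held almost only the widely expressed one. Cox4i1 lay at 40.0 to 81.8 CPM after saline and 39.2 to 138 CPM after LPS and rose by 0.76, while Cox4i2 had 10 counts in all 37 libraries. Cox6b1 rose by 0.82, while Cox6b2 had 32 counts in all. Cox7a2 and Cox8a were called as above, while Cox7a1 had 12 counts and Cox8b had 2, and Cox8c and Cox7b2 had 0 counts in all libraries. A count of 0 in a single library allows up to 3 counts, which is 1.99 CPM in the shallowest and 0.522 CPM in the deepest library and covers counting error only. Cox6a2, the muscle form of Cox6a1, was the exception that passed the filter. It lay at 0.0, 0.637 and 1.61 CPM (lowest, median and highest) after saline and at 0.0, 1.71 and 7.68 CPM after LPS, with 12 of 22 LPS libraries above every saline library and others at 0. No saline library had over 6 counts of it, so it passed the filter through LPS libraries only, and its log2 fold change of 1.95 ± 0.52 (SE) is a description that depends on the prior count. It is nevertheless 1 of the 11 members of complex IV counted as higher. Cox6a1 rose by 0.71. Cox7a2l, a factor that joins complexes III and IV into supercomplexes, lay at 48.4, 72.2 and 90 CPM after saline and 29.9, 66.7 and 107 CPM after LPS and did not pass the test (-0.17 ± 0.12 SE, adjusted p = 0.224 by edgeR), though it was called lower on library totals without a scaling factor (-0.37). Ndufaf6 of complex I (180 counts) and a second identifier named Atp5o (0 counts) complete the 9 members below the filter.

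Complex V held the 3 members with the smallest p-values, Atp5b, Atp5l and Atp5g3. Of 17 tested, 16 rose and 1 fell, with a median of 0.74. Atp5b, the catalytic beta subunit (chr10:128083273-128090391 in GRCm38, plus strand), lay at 173, 162, 128 and 170.2 CPM in CON_CON_SAL, at 169, 129, 177 and 149 CPM in MIA_CON_SAL, at 144, 189, 168 and 181 CPM in CON_PLX_SAL and at 178, 184 and 203 CPM in MIA_PLX_SAL. After LPS it lay at 335.5, 415, 204.5 and 376 CPM in CON_CON_LPS, and at lowest, median and highest values of 223, 336 and 355 CPM in MIA_CON_LPS, 266, 377 and 449 CPM in CON_PLX_LPS and 224, 353 and 379 CPM in MIA_PLX_LPS. Every LPS library lay above every saline library, the closest being CON_CON_LPS replicate 4 at 204.5 CPM against 203.1 CPM in a MIA_PLX_SAL library. The log2 fold change of Atp5b was 1.0 ± 0.09 (SE, adjusted p = 4.152e-11 by edgeR), a fold of 2.00.

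The membrane part of complex V moved with the catalytic part. Atp5g1, Atp5g2 and Atp5g3 encode the same ring subunit with different import sequences, and rose by 1.20, 0.74 and 1.02. Atp5g1 lay at 13.4, 22.1 and 34.2 CPM (lowest, median and highest) after saline and at 18.4, 54.9 and 85.6 CPM after LPS, with 18 of 22 LPS libraries above all saline ones. Atp5l, the g subunit, rose by 1.01 (adjusted p = 1.743e-10 by edgeR), and Atp5mpl, a small proteolipid, by 1.22. Atp5s, which carries an ATP synthase name but is an assembly-related factor and not a core subunit, fell. It lay at 2.91, 5.52 and 8.13 CPM after saline and at 0.437, 2.45 and 5.86 CPM after LPS, with 12 of 22 LPS libraries below every saline library, and had a log2 fold change of -1.01 ± 0.25 (SE, adjusted p = 8.059e-04 by edgeR).

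**Figure D3:**
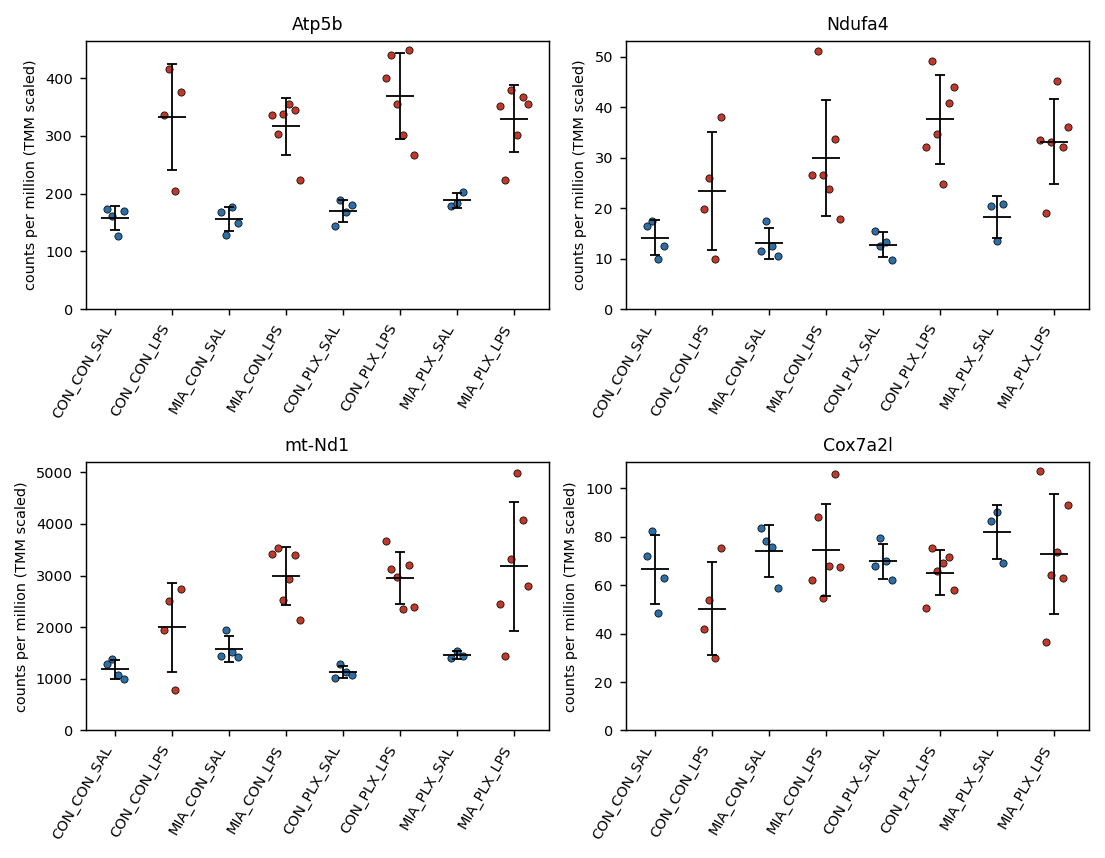
TMM-scaled CPM of Atp5b, Ndufa4, mt-Nd1 and Cox7a2l in each library of the 8 groups, with the mean ± SD. Atp5b sits at 204.5 CPM or above in all LPS libraries and at 203.1 CPM or below in all saline ones, Ndufa4 and mt-Nd1 overlap in part, and Cox7a2l overlaps at 48.4 to 90 CPM after saline and 29.9 to 107 CPM after LPS.

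Among the mitochondrial genes, the complex I subunits mt-Nd1 and mt-Nd2 and the small ATP synthase subunit mt-Atp8 had the highest fold changes. mt-Nd1 (chrM:2751-3707, plus strand) lay at 1293, 1389, 1067 and 996 CPM in CON_CON_SAL, at 1447, 1939, 1514 and 1414 CPM in MIA_CON_SAL, at 1012, 1281, 1132 and 1076 CPM in CON_PLX_SAL and at 1397, 1535 and 1452 CPM in MIA_PLX_SAL. After LPS it lay at 1954, 2499, 787 and 2742 CPM in CON_CON_LPS, and at lowest, median and highest values of 2138, 3169 and 3526 CPM in MIA_CON_LPS, 2357, 3048 and 3671 CPM in CON_PLX_LPS and 1443, 3064 and 4992 CPM in MIA_PLX_LPS. Of 22 LPS libraries 20 lay above the highest saline library, and CON_CON_LPS replicate 4 lay below the lowest. Its log2 fold change was 1.05 ± 0.13 (SE, adjusted p = 3.283e-08 by edgeR). mt-Nd2 rose by 1.07 ± 0.18 (SE).

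mt-Co1, the catalytic subunit of complex IV, was the most abundant message of all members and had the smallest log2 fold change of the mitochondrial ones. It lay at 6874, 8573 and 10250 CPM (lowest, median and highest) after saline and at 3727, 13320 and 16690 CPM after LPS, where 17 of 22 libraries lay above the saline range and 2 below it, and rose by 0.52 ± 0.14 (SE, adjusted p = 1.663e-03 by edgeR). Its share of the mitochondrial messages was 48.0% ± 2.98 (SD, n = 15) after saline and 43.5% ± 3.76 (SD, n = 22) after LPS. The share of mt-Nd1 was 7.46% ± 0.626 (SD, n = 15) and 9.99% ± 1.46 (SD, n = 22). Both shares overlapped between injections, that of mt-Co1 at 41.7% to 52.3% after saline and 32.2% to 48.8% after LPS, and that of mt-Nd1 at 6.93% to 9.43% and 7.86% to 14.7%. mt-Cytb, the only mitochondrial subunit of complex III, took 11.5% and 12.1% and rose by 0.73. The other log2 fold changes were 0.89 for mt-Nd3, 0.77 for mt-Co2, 0.72 for mt-Atp6, 0.68 for mt-Nd4, 0.66 for mt-Nd5 and mt-Nd4l and 0.61 for mt-Nd6. mt-Nd4l lost its call with the replicate block (0.48) and on library totals without a scaling factor (0.43). mt-Nd6 is the only member read from the other strand, and its 14 bases shared with mt-Nd5 cannot be assigned in unstranded libraries.

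For some mitochondrial members the counts are shared with nuclear copies of mitochondrial DNA. Of the counts of a gene and its copies, the copies held a median of 38.8% for mt-Co3 (0.0% to 84.7% over libraries), 35.6% for mt-Atp6 and 31.0% for mt-Co2, and 4.71% for mt-Co1. With the counts of copies added to the gene, all 13 mitochondrial members were still called higher. mt-Co3 passed the test narrowly (0.58 ± 0.24 SE, adjusted p = 0.0392 by edgeR) and lost its call with RLE size factors, on library totals without a scaling factor, with no filter on low counts, with the replicate block (0.44) and when single libraries were left out. mt-Atp8 (chrM:7766-7969), whose last bases are the overlap printed above, lay at 2.81, 7.19 and 48.3 CPM (lowest, median and highest) after saline and 4.71, 29.5 and 107 CPM after LPS. Only 7 of 22 LPS libraries lay above the saline range, the 4 MIA_CON_SAL libraries being the high saline ones as a group (9.87 to 48.3 CPM against 2.81 to 14.0 CPM in the other saline groups), and the log2 fold change was 1.79 ± 0.38 (SE, adjusted p = 1.822e-04 by edgeR). Among nuclear members, the copy Ndufb4c drew 132% of the counts of Ndufb4, so the level of Ndufb4 is uncertain. The copy of Uqcr10 (4930481A15Rik) drew 33.3% of its counts and the copies of Atp5g2 drew 14.0%. Counts of copies were added for mitochondrial members only. Gene models on the opposite strand overlap Cox6c (Vps13b), Cox4i1 (Emc8), Ndufs1 (Eef1b2), Ndufa11 (Vmac) and Atp5a1 (Haus1), and in these unstranded libraries reads from the shared bases cannot be told apart.

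Per length, the mitochondrial messages led the nuclear ones by a wide margin. In saline libraries mt-Co1 stood at 5494 CPM per kilobase of transcript, mt-Cytb at 1783, mt-Nd1 at 1389 and mt-Nd4 at 1342. The highest nuclear members were Atp5b at 87.2 CPM per kilobase, Cox7c at 76.2, Cox4i1 at 70.5, Cox6a1 at 70.0 and Cox7a2l at 67.4. The 12 highest members were all mitochondrial, and mt-Atp8, at 63.3 CPM per kilobase, ranked at 18. The class medians were 27.0 for complex V, 26.5 for complex IV, 18.5 for complex II, 13.9 and 12.4 for the core and accessory subunits of complex I, 13.5 for complex III and 3.51 for the assembly factors of complex I, against 808.5 for the mitochondrial members.

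The number of members called differed between the arms. In CON:CON, 14 of 85 nuclear members rose and 0 fell (13.7% of all genes were called higher and 9.84% lower), with a median log2 fold change of 0.44, and 1 of 13 mitochondrial members rose, with a median of 0.47. The nuclear share of 16.5% was near the background, and the mitochondrial share lay below it. Without CON_CON_LPS replicate 4 the counts were 28 and 6, while without replicate 5 the nuclear count was 7. Leaving out CON_CON_SAL replicate 3 or replicate 4 gave 9 nuclear members each. In MIA:CON, 30 nuclear and 4 mitochondrial members rose and 0 fell (all genes, 14.5% higher and 10.9% lower), with medians of 0.59 and 0.63. Without MIA_CON_LPS replicate 6 these were 36 higher and 1 lower among nuclear members and 5 higher among mitochondrial ones. Without MIA_CON_SAL replicate 4 they were 17 and 1.

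In CON:PLX, 52 nuclear and 10 mitochondrial members rose and 0 fell (all genes, 17.5% higher and 14.0% lower), with medians of 0.85 and 1.09, the highest of the 4 arms. In MIA:PLX, 13 nuclear members rose and 1 fell and 3 mitochondrial members rose (all genes, 11.8% higher and 10.4% lower), with medians of 0.41 and 0.75. The 15.3% of nuclear members called higher in MIA:PLX was near the background, and the nuclear count of 14 fell to 2 without MIA_PLX_SAL replicate 3, while the mitochondrial count was 7 without MIA_PLX_LPS replicate 2. Summed monocyte markers had medians of 85.9 CPM in CON_CON_LPS and 59.1 CPM in MIA_CON_LPS, with 233 CPM in CON_PLX_LPS and 156 CPM in MIA_PLX_LPS. Their part in these differences was not tested. The arms differ in their number of libraries, with 4 saline against 4 LPS libraries in CON:CON, 4 against 6 in MIA:CON and CON:PLX and 3 against 6 in MIA:PLX, so counts of calls are not on one footing between them. Counted by libraries instead of p, members with every LPS library above every saline library numbered 5 nuclear and 0 mitochondrial in CON:CON (11.7% of all genes), 22 and 3 in MIA:CON (8.94%), 43 and 7 in CON:PLX (14.0%), and in MIA:PLX 10 and 1 (12.1%).

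The direction was shared more widely than the calls. All 13 mitochondrial members and 66 of 85 nuclear members had a log2 fold change above 0 in all 4 arms, and 4 nuclear members had none above 0, namely Atp5s, Ndufaf2, Ndufaf7 and Sdha. The share of all genes above 0 in all 4 arms is not given here, so these counts stand without a background. The 13 mitochondrial members come from the same circle and are not independent of each other. Members called higher in all 4 arms were 7 nuclear genes, Atp5a1, Atp5b and Atp5g3 of complex V, Cox6c and Cox7c of complex IV, and Ndufa11 and Ndufa12 of complex I, together with mt-Nd1. The 7 are 8.24% of the nuclear members tested, near the 7.33% of all genes called higher in all 4 arms. mt-Nd1 is 7.69% of the mitochondrial members, also near that share. Another 9 nuclear members (10.6%, against 3.91% of all genes) and mt-Nd2 (7.69% of the mitochondrial ones) were called higher in 3 arms. In none were 28 nuclear (32.9%, against 76.6%) and 2 mitochondrial members (15.4%) called higher. For Atp5b the log2 fold changes were 1.07 in CON:CON and 1.02 in MIA:CON, with 1.11 in CON:PLX and 0.81 in MIA:PLX. For mt-Nd1 they were 0.75, 0.92, 1.39 and 1.12, with adjusted p = 0.0426 by edgeR in CON:CON, the weakest of the 4. That call in CON:CON was lost with RLE size factors, library totals, no filter, the replicate block and a fit on the compared groups. It was also lost when any 1 of 7 libraries was left out (CON_CON_LPS replicates 1, 2 and 5, CON_CON_SAL replicates 1, 3 and 4, and MIA_PLX_SAL replicate 4), with an adjusted p of up to 0.168 by edgeR. The 4 arms share no libraries, while the mean over the arms uses all of them.

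Complexes III, IV and V had the highest nuclear medians in each arm: 0.64, 0.65 and 0.63 in CON:CON, 0.74, 0.91 and 0.73 in MIA:CON, while CON:PLX had 0.83, 1.25 and 1.11 and MIA:PLX had 0.49, 0.61 and 0.51. The accessory subunits of complex I had medians of 0.36, 0.48, 0.76 and 0.31, and its assembly factors had -0.14, -0.41, 0.12 and -0.07, in the same order of arms. Complex IV had the highest share of called members in CON:PLX after complex V, with 10 of 12 against 15 of 17. Differences between complexes were not tested.

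**Figure D4:**
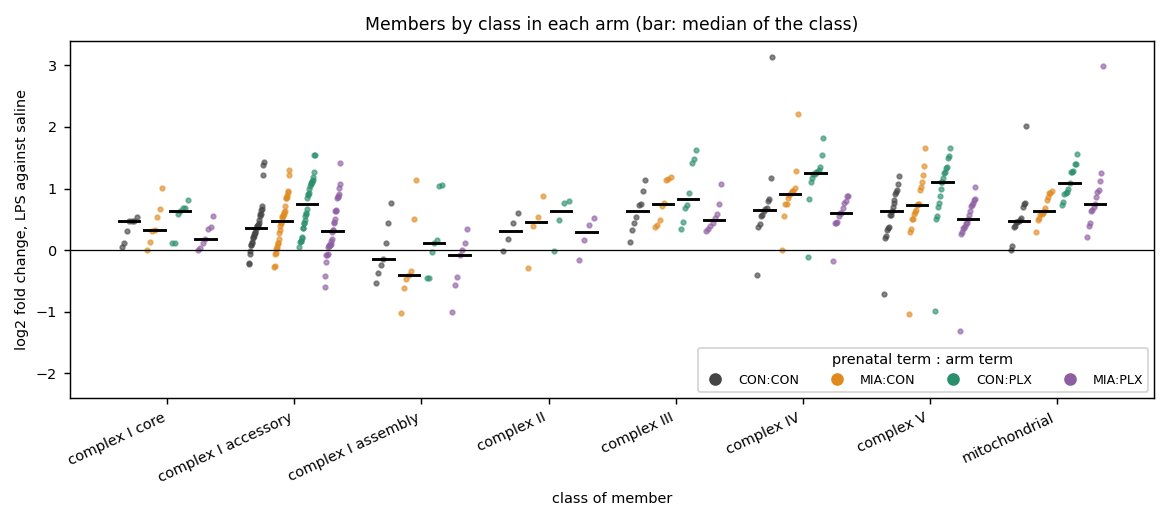
Log2 fold change, LPS against saline, of each tested member by class in each of the 4 arms, with a bar at the class median. Complex IV medians run from 0.61 in MIA:PLX to 1.25 in CON:PLX, those of the assembly factors of complex I from -0.41 to 0.12, and the mitochondrial points lie above 0 in all 4 arms.

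No member passed the test for the prenatal term, the arm term or their interactions with LPS. In the 8 contrasts of MIA against CON and of PLX against the CON arm, and in the 4 interactions, 0 of 98 members were called by edgeR, DESeq2 or voom with all groups in the fit. The contrasts of MIA or PLX with 0.0% of all genes called were 6 of 8, and the others had 0.0149% (MIA against CON, PLX arm after LPS) and 0.00745% (PLX against the CON arm, prenatal CON after LPS), and the 4 interactions had 0.0%. At an unadjusted p under 0.05, PLX against the CON arm after LPS in prenatal CON mice had 25 of 85 nuclear and 4 of 13 mitochondrial members, all higher, against 7.03% of all genes, with medians of 0.41 and 0.49 and a lowest adjusted p of 0.572 by edgeR. MIA against CON after LPS in the CON arm had 16 nuclear (15 of them higher) and 6 mitochondrial members, all higher, against 9.33% of all genes, with medians of 0.24 and 0.58. Both contrasts share the CON_CON_LPS libraries, of which replicate 4 was low for many members.

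In the other contrasts the members at an unadjusted p under 0.05 are given beside the share of all genes that reached it. After saline, MIA against CON had 3 nuclear and 1 mitochondrial member in the CON arm (all genes, 1.18%) and 7 and 1 in the PLX arm (1.22%). PLX against the CON arm after saline had 0 and 0 in prenatal CON (0.931%) and 3 and 1 in prenatal MIA (1.18%). After LPS there were 4 and 0 for MIA against CON in the PLX arm (8.89%) and 0 and 0 for PLX in prenatal MIA (8.86%), both below the share of all genes. For MIA against CON in the PLX arm after saline, a fit on those groups alone called 9 of 96 members, all higher, and 1.14% of 11962 genes, where the fit on all groups called 0. The interaction of MIA with LPS had 2 of 85 nuclear members in the CON arm (3.09% of all genes). It had 7 of 85 in the PLX arm (2.93%), all 7 lower. In the PLX arm 79 of 85 nuclear log2 values lay below 0, with a median of -0.43 against -0.01 over all genes. The share of all genes below 0 is not given here, members are not independent of each other, and MIA_PLX_SAL had 3 libraries. The interaction of PLX with LPS had 4 nuclear and 1 mitochondrial member in prenatal CON (2.65%) and 2 and 1 in prenatal MIA (2.9%).

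Genes that serve the chain are read against the 30.3% of all genes called higher and 26.0% lower over the mean of the arms. Of 17 genes of the tricarboxylic acid cycle 12 rose and 1 fell (median 0.42). Idh3a, of the NAD-linked isocitrate dehydrogenase, rose by 1.19 ± 0.14 (SE) and Mdh2 by 0.79, while Idh2, the NADP-linked enzyme, fell by 1.03 ± 0.14 (SE). Of 78 mitochondrial ribosomal protein genes, whose products translate the 13 mitochondrial messages, 44 rose and 2 fell (median 0.44), with 1.54 for Mrps18b, 1.04 for Mrpl52, 0.91 for Mrpl16 and 0.89 for Mrpl30. Of 42 assembly factors and carriers 13 rose, near the share of all genes, and 2 fell (median 0.22), among them Slc25a5 (0.90), which exchanges ADP for ATP, Cycs (0.82), which encodes cytochrome c, Cox10 (1.14), of heme A synthesis, and Ttc19 (0.56).

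The regulators of mitochondrial biogenesis were near all genes: 5 of 19 rose and 3 fell, with a median of 0.03. The coactivators Pprc1 (0.95 ± 0.11 SE) and Ppargc1b (1.71 ± 0.26 SE) rose, as did Polg (0.72), the mitochondrial DNA polymerase, and Esrra (0.48), a nuclear receptor that works with them. Ppargc1b averaged 1.88 CPM in saline and 5.99 CPM in LPS libraries, while the filter on low counts needed 3.231 CPM in 3 libraries. It may thus have passed through LPS libraries only, so its call and fold change are a description, although it is 1 of the 5 counted as higher. Gabpa (-0.25), Gabpb1 (-0.57) and Tfb1m (-0.92) fell. Nrf1 (0.02), Yy1 (-0.14) and Tfam (0.21), which packages mitochondrial DNA, did not pass the test. Of the 12 members whose promoter window holds the NRF1 letters, all were tested and 10 rose, with a median of 0.66, and of the 60 tested members without them 41 rose and 2 fell, with a median of 0.54. With the ETS letters 5 of 5 rose (median 0.57), and without them 46 of 67 rose and 2 fell (0.56). With the YY1 letters 7 of 11 rose (0.50), and without them 44 of 61 rose and 2 fell (0.58). Whether any of these motifs goes with the rise was not tested.

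Respiratory chain messages are short, and fold changes went with length across all genes. Over 11088 coding genes Spearman's rho between transcript length and log2 fold change was -0.17, and over the 85 nuclear members it was -0.48. These are descriptions across genes of the same libraries, and genes are not independent replicates. In the shortest eighth of genes (204 to 1402 bases) the median of all genes was 0.32 with 44.2% called higher, and the 60 nuclear members in it had a median of 0.65. In the next eighth (1403 to 1969 bases) the medians were 0.13 for all genes and 0.28 for its 16 nuclear members. The other eighths held 9 nuclear members in all. The part of length in the members' rise was not tested.

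**Figure D5:**
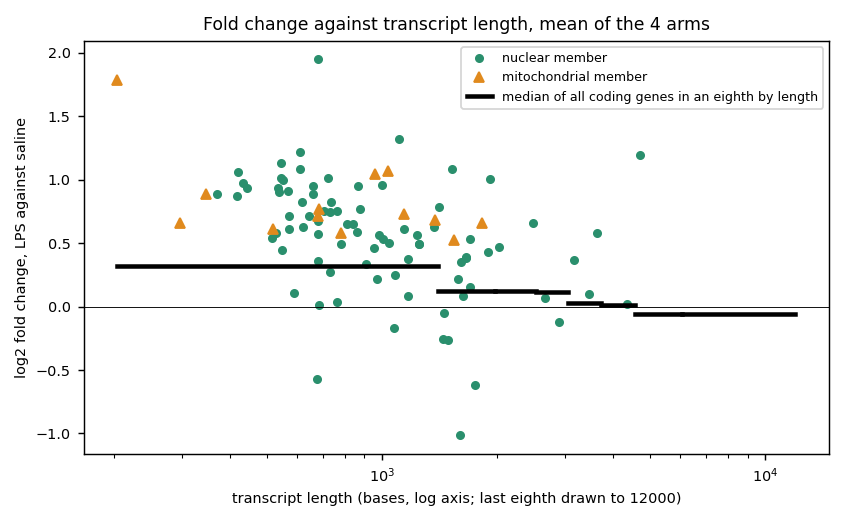
Log2 fold change, LPS against saline over the mean of the 4 arms, against transcript length (log axis) for the nuclear members (circles) and mitochondrial members (triangles), with the median of all coding genes in each eighth by length as a bar. The bars fall from 0.32 in the shortest eighth to -0.06 in the longest, and 68 of 85 nuclear members lie above the bar of their length.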

How the data were processed

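RNA of sorted microglia was amplified without strand information or ribosomal depletion, per the labels' protocols. The authors deposited estimated counts per gene (14.71% of nonzero values are not whole), and RSEM, STAR and DESeq2 are named per the submitters' processing notes. Tool versions and the genome build were not given in the sources used here. Identifiers were named through GENCODE M21 (55227 of 55487 matched, 54435 of them with version).

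Counts were rounded. Genes were kept by filterByExpr (minimum count 10, minimum total 15), scaled by TMM and fitted by edgeR 4.0.16 quasi-likelihood (robust, R 4.3.3) with 1 mean per group over 37 libraries. The fit was also run on simulated counts with few genes changed, as many up as down. That run cannot check the scaling of data in which many genes change. Of 17 contrasts each was adjusted by Benjamini-Hochberg over 13420 genes and called at an adjusted p under 0.05. SE is the log2 fold change divided by the square root of F. CPM of genes are TMM-scaled, and shares, marker sums and floors are of raw totals. Copies were found with blastn 2.17.0 (95% identity over 100 coding bases).

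Members and lists were chosen with earlier results of these data known. Named were all mitochondrial members, per nuclear class the 4 members with the smallest p and the largest-p member, the isoform pairs, and 4 genes per related list. Members named for their calls across arms, and further biogenesis regulators, were named after their values were seen. Alternatives were RLE factors, library totals, no filter, DESeq2 1.42.0, limma 3.58.1 voom, the marked libraries included, fits on the compared groups, a replicate block, copies added, the mitochondrial chromosome left out of library sizes, and each library left out.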

Additional observations from a re-analysis of the deposited data

Results flagged for a closer look

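Of 42 sets of values over groups of 4 to 6 libraries, 1 had a library far from the others. Chance flags about 5%, so this is no more than chance gives. The share of mt-Co1 among mitochondrial member counts was 32.2% in MIA_PLX_LPS replicate 4, against 41.9% to 45.9% in the other 5 libraries of that group, a gap of 0.703 of the whole range. mt-Nd1 had its highest level of all libraries there, at 4992 CPM, and Uqcrq was low at 6.90 CPM.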

How the results depend on the processing

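Over the mean of the arms the direction and the side of the threshold of the counts held in every alternative run: 58 to 67 nuclear members were called (63 to 66 with single libraries left out) and 11 to 13 mitochondrial members (12 to 13). Of 98 members, 82 kept their call on library totals without a scaling factor, a setting chosen after seeing the data, where 12 lost it and 4 gained it, all 4 lower.

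Counts within arms were less stable, and the cause was not tested. In CON:CON the 14 nuclear members became 24 with voom, 6 in a fit on the compared groups and 7 to 28 with single libraries left out. The 1 mitochondrial member there became 0 with RLE size factors, library totals, no filter and the replicate block, 2 with DESeq2, voom, the marked libraries included and MIA_CON_LPS replicate 6 left out (added after seeing the data), and 0 to 6 with single libraries left out. It was 0 without CON_CON_LPS replicate 1, 2 or 5, CON_CON_SAL replicate 1, 3 or 4, or MIA_PLX_SAL replicate 4. In MIA:CON the 30 nuclear members became 17 to 37 with single libraries left out, and the 4 mitochondrial ones became 1 with no filter and 1 to 6 with single libraries left out, 2 of these without MIA_CON_LPS replicate 5 or MIA_CON_SAL replicate 1 or 3. In MIA:PLX the 14 nuclear members became 9 on library totals, 4 with no filter, 26 with voom and 2 to 17 with single libraries left out (6 without MIA_PLX_LPS replicate 6 or MIA_PLX_SAL replicate 2, 7 without MIA_PLX_LPS replicate 3, 9 without replicate 5, 4 without MIA_PLX_SAL replicate 4). The 3 mitochondrial ones became 7 with voom, 5 with copies added (added after seeing the data) and 1 to 7 with single libraries left out. MIA against CON in the PLX arm after saline went from 0 to 9 members on the compared groups. The log2 ratio of nuclear to mitochondrial members became -0.23 over the mean, -0.14 in MIA:CON, -0.32 in CON:PLX and -0.53 in MIA:PLX when taken from mean log2 CPM.

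Replicate numbers are shared between groups, but the labels do not say that they pair samples. Deviations of same-numbered libraries correlated with a median of 0.02 (-0.25 to 0.66 over 107 pairs). Those of other pairs between groups had a median of -0.004 (-0.48 to 0.49 over 487 pairs). Of 37 libraries 15 were closest to their own number. Whether libraries of the same number share a batch was not tested. With the replicate block 63 nuclear and 11 mitochondrial members were called over the mean of the arms. Shallow libraries and low levels limit members such as Cox6a2, Atp5s and mt-Atp8.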
